A study of Homo sapiens with 6 samples.

Results

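The genes described here are 37 genes of homologous recombination, the Fanconi anemia pathway, damage signaling and mismatch repair, chosen by gene symbol from the 26255 genes listed in each RNA-seq file. All 37 were found and all passed the filter of a mean of at least 1 FPKM (a transcript's share of the sequenced fragments, divided by its length) over the 6 samples. The samples were 22RV1 cells, an established human castration-resistant prostate cancer (CRPC) cell line, grown in full medium and treated for 24 h with DMSO, the vehicle (3 samples), or with 10 nM bruceantin (BCT), a plant quassinoid (3 samples). No other agent, genotype or time was compared. The labels do not say whether the 3 samples of a group came from separate cultures, so p-values measure only the spread between these samples. As a check of the labelled cell type, the epithelial and prostate markers KRT8, KRT18, EPCAM and HOXB13 were between 59.2 and 1148 FPKM in every sample, whereas PTPRC of leukocytes and PECAM1 and CDH5 of endothelium did not exceed 0.036 FPKM. Marker lists of other cell types were low in both groups, although the stromal and leukocyte sums rose. The 6 stromal markers summed to 6.13 to 7.02 FPKM with DMSO and 18.9 to 21.6 with BCT. These were mainly COL1A1 and ACTA2, with COL1A2 and PDGFRB under 0.1, while LUM was lower with BCT (mean 0.57 against 1.01 FPKM). The 4 leukocyte markers summed to 2.40 to 3.45 and 5.12 to 8.39 (mainly CD68). The 3 endothelial markers summed to 0.014 to 0.043 and 0.039 to 0.051, ranges that overlap. The part of these markers in the results was not tested.

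Homologous recombination repairs a double-strand break by copying the sister chromatid. The MRN complex (MRE11A, RAD50, NBN) finds the break, RBBP8, EXO1 and BLM trim its ends to single strands, and BRCA1 with BARD1, PALB2 and BRCA2 loads the recombinase onto them. The Fanconi anemia genes unhook cross-links between the strands and hand the resulting break to the same machinery, mismatch repair corrects copying errors of the polymerase, and the kinases ATM, ATR and CHEK2 signal damage to the cell cycle. Many of these genes are transcribed mostly in late G1 and S phase, when a sister chromatid is being made. In prostate cancer the recombination genes are known as sites of inherited and acquired loss-of-function mutations.

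Most of the 37 genes were expressed at a lower level in BCT-treated cells, and the counts varied by branch. A gene was called lower or higher when its FDR was below 0.05 and its log2 fold change passed 0.85 in size, with limma on log2(FPKM + 0.1) and Benjamini-Hochberg adjustment over all 12729 genes tested. By this rule 17 of the 37 genes fell (45.9%), against 17.8% of all genes tested, and 2 rose (5.41%), against 13.9% of all genes. The FDR alone was passed by 26 genes with a lower and 6 with a higher level, and it was not passed by PALB2, RAD51C, NBN, ATM and PMS1; of all genes tested, 82.1% passed it. All 3 BCT samples lay below all 3 DMSO samples in 26 genes, against 44.3% of all genes, and above them in 8, against 41.0% of all genes. The median log2 fold change was -0.78 over the 37 genes, where all tested genes had -0.04. Summed over the 37 genes, the level was 570.1, 572 and 558 FPKM in the DMSO samples and 365, 351 and 346 FPKM in the BCT samples. In cultured cells measured in bulk, fewer cells in S phase and less RNA of these genes per cell cannot be told apart.

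**Figure D1:**
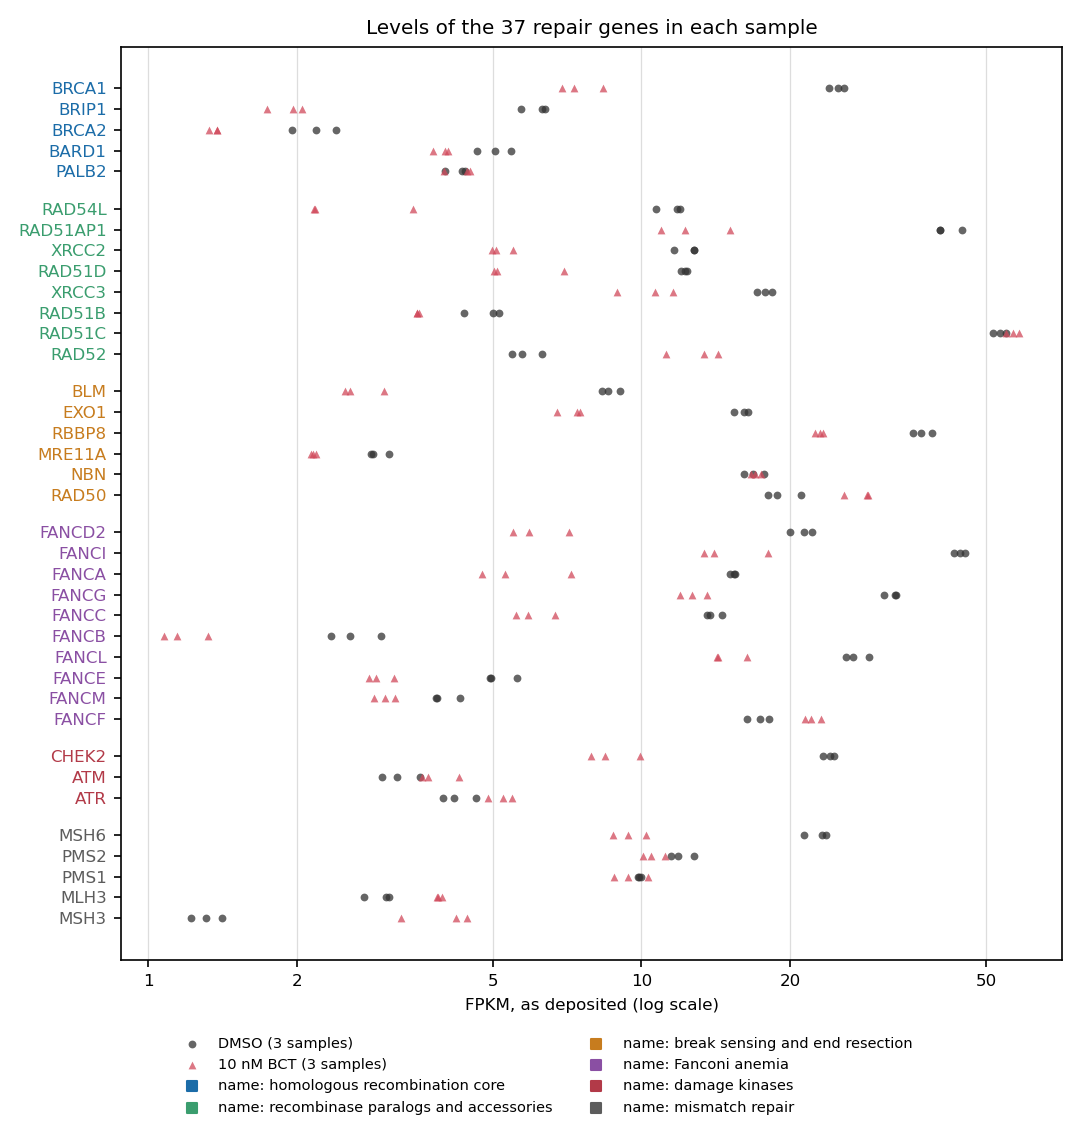
FPKM of each of the 37 genes in each of the 6 samples, on a log axis, with DMSO samples as black circles, BCT samples as red triangles and gene names colored by role. In RAD54L the BCT samples lie between 2.17 and 3.44 FPKM and the DMSO samples between 10.7 and 11.96, in RAD52 and MSH3 all BCT samples lie above all DMSO samples, and in PALB2, NBN and PMS1 the groups overlap.

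Among the 6 samples, BCT replicate 1 stood nearer to the DMSO samples than the other BCT samples, at 40.2 on a first principal component over all tested genes where BCT replicates 2 and 3 lay at 65.0 and 63.8 and the DMSO samples between -57.7 and -54.3. In all 17 genes that fell, BCT replicate 1 had the highest value of the BCT samples. The same share among all genes that fell was not computed, so this is not shown to be particular to these genes. Without it, 18 of the 37 genes were called lower, with XRCC3 added, and 2 higher. The deposited FPKM values do not sum to a constant, and a single small RNA gene, MIR6087, made up 43.5% to 55.3% of the sum with DMSO and 31.7% to 32.5% with BCT. Rescaling every sample to the same sum moved the all-gene median from -0.04 to 0.72 and left 6 of the 37 genes called lower (BRCA1, BRIP1, RAD51AP1, RAD54L, BLM and FANCD2) and 8 called higher (RAD51C, RAD52, RAD50, FANCF, ATM, ATR, MSH3 and MLH3). The median of the 37 genes was then -0.01, again below that of all genes, of which 668 were called lower and 5614 higher, against 2263 and 1764 in the values as deposited. Values given below after rescaling to equal sums are to be read beside that all-gene median of 0.72. In the values as deposited, the median FPKM of the genes tested was between 11.8 and 12.1 in each sample. The number of fragments behind a gene is not given by FPKM; ratios among genes of 0.02 to 0.15 FPKM put the depth at 0.879 to 1 in the DMSO samples and 1.06 to 1.13 in the BCT samples, relative to DMSO replicate 1.

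As a loose form of the motif bound by E2F factors, which drive S-phase genes, the letters TTTNNCGC were searched on both strands. Any base was allowed at each N, so a match can differ from the sequence that E2F prefers. The promoters were those of RefSeq (GRCh38.p14, 250 bases before to 50 after each annotated start). Of the 37 genes, 35 (all but NBN and FANCI) had a promoter in the table, with 49 promoters in all, and 11 of these (22.4%) held the motif, against 6.89% of all 35116 promoters. The 9 genes with a match were CHEK2, EXO1, FANCA, FANCC, FANCD2, MSH3, MSH6, PMS2 and XRCC2. Of these, 7 fell (77.8%), MSH3 rose and PMS2 was not called. Of the 26 genes without a match, 9 fell (34.6%) and RAD52 rose. Of all genes tested, 17.8% fell and 13.9% rose. The shares among all genes with and without the motif were not computed, and a part of the motif in the fall was not tested. BRCA1, RAD54L, RAD51AP1 and BLM were among the genes that fell without these letters in the window. A match is a run of letters, not a measured binding site. The cell cycle element TTTGAA was found in 6.12% of the promoters of these genes against 15.2% of all, and CCAAT in 38.8% against 34.6%. The stretches around 7 of the matches are printed 5′ to 3′ along the gene's strand, with the match in capitals, since they set 5 genes that fell beside MSH3, which rose, and PMS2, which was not called.
CHEK2 (chr22:28741811-28741840, minus strand): gtatctgcaggTTTAGCGCcactctgctgg
EXO1 (chr1:241848197-241848226, plus strand): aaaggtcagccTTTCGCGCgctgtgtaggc
FANCC (chr9:95317737-95317766, minus strand): ttcgtcggaatTTTCCCGCgacgccgcggg
FANCD2 (chr3:10026424-10026453, plus strand): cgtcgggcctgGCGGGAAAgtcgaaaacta
MSH6 (chr2:47783137-47783166, plus strand): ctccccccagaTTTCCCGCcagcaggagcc
MSH3 (chr5:80654534-80654563, plus strand): gcgcggtcaagTTTGGCGCgaaattgtggc
PMS2 (chr7:6009131-6009160, minus strand): cgggaagtattTTTGCCGCcccgcccggaa
In MSH3 a match of the reverse strand begins 4 bases further on and overlaps the printed one.

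Of the 5 genes of the recombination core, BRCA1 and BRIP1 fell, to 30.2% and 31.3% of their DMSO level, and the other genes did not pass the fold threshold. BRCA1, the ubiquitin ligase that starts recombination, is on chromosome 17 from 41196312 to 41322262 (GRCh37) and was at 24.98, 25.8 and 23.98 FPKM in the DMSO samples and at 8.35, 7.29 and 6.91 FPKM in the BCT samples. The groups lie far apart, and the log2 fold change was -1.72 ± 0.0761 (SE, adjusted p = 6.65e-07). BRIP1, the helicase that binds BRCA1 (also a Fanconi gene), was at 6.37, 6.298 and 5.69 FPKM with DMSO against 2.05, 1.96 and 1.74 FPKM with BCT, a log2 fold change of -1.62 ± 0.0912 (SE, adjusted p = 1.39e-06). BARD1, the obligate partner of BRCA1 in the ligase, was at 5.43, 5.05 and 4.64 FPKM with DMSO and 4.05, 3.997 and 3.77 FPKM with BCT. Its groups do not overlap, but the log2 fold change of -0.34 passed only the FDR (adjusted p = 0.00366). After rescaling to equal sums BARD1 was at 0.41, where the median of all genes was 0.72. BRCA2, the loader of the recombinase, was expressed at only 1.95, 2.41 and 2.19 FPKM with DMSO against 1.33, 1.38 and 1.38 FPKM with BCT, a log2 fold change of -0.64 ± 0.119 (SE, adjusted p = 0.00104) that missed the fold threshold. Its transcript is 11954 bases long with a GC content of 36.2%, and a correction of all genes for GC content and transcript length moved the value to -1.03 (adjusted p = 1.0e-05), past the threshold, whereas rescaling to equal sums moved it to 0.09. PALB2, the bridge between BRCA1 and BRCA2, was at 4.33, 4.39 and 4.001 FPKM with DMSO and 3.98, 4.42 and 4.49 FPKM with BCT, and the groups overlap (adjusted p = 0.823).

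**Figure D2:**
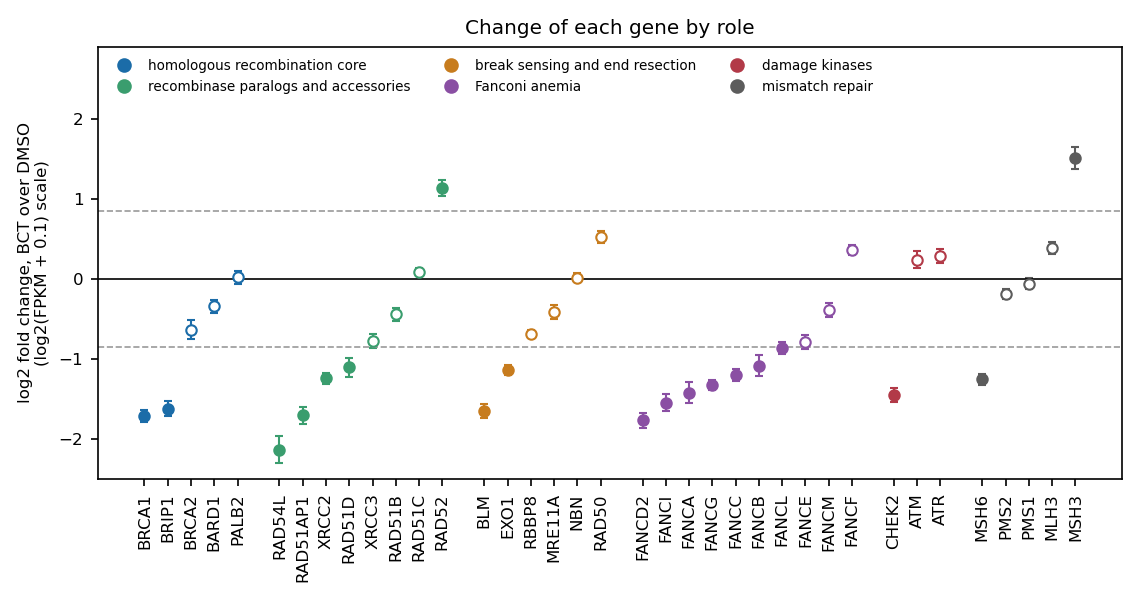
Log2 fold change of BCT over DMSO for each gene on the log2(FPKM + 0.1) scale, ordered within its role, with bars of 1 standard error, filled circles for called genes and dashed lines at the fold threshold of 0.85. The largest fall is that of RAD54L at -2.13 and the largest rise that of MSH3 at 1.51; FANCL, at -0.87, lies just past the line, and FANCE and XRCC3, at -0.79 and -0.78, just short of it.

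The paralogs of the recombinase and its accessory factors held both the largest fall and one of the 2 rises, with 4 of 8 genes lower, 1 higher and a median log2 fold change of -0.94. RAD54L, the motor protein that helps the filament invade the sister chromatid, lies on chromosome 1 from 46712133 to 46744152 and was at 10.7, 11.96 and 11.8 FPKM with DMSO. With BCT it was at 3.44, 2.17 and 2.18 FPKM, 22.6% of the DMSO level and a log2 fold change of -2.13 ± 0.165 (SE, adjusted p = 5.82e-06). RAD51AP1, which stimulates joint formation, was at 44.6, 40.2 and 40.3 FPKM with DMSO against 15.1, 12.3 and 10.97 FPKM with BCT, a log2 fold change of -1.71 ± 0.11 (SE, adjusted p = 2.43e-06). It ranked 3 of the 37 genes by level with DMSO and 9 with BCT. XRCC2 and RAD51D, which sit side by side in the BCDX2 complex, both fell. XRCC2 was at 11.6, 12.8 and 12.8 FPKM with DMSO and 5.495, 5.06 and 4.98 FPKM with BCT, a log2 fold change of -1.25 ± 0.0676 (SE, adjusted p = 1.27e-06). RAD51D was at 12.3, 12.04 and 12.2 FPKM and 6.97, 5.03 and 5.08 FPKM, a log2 fold change of -1.10 ± 0.119 (SE, adjusted p = 3.77e-05) in which BCT replicate 1 stands above the other BCT samples. Its call was lost after rescaling to equal sums (-0.35) or without MIR6087 (-0.72). The deposited position of RAD51D is also given to RFFL and RAD51L3-RFFL, and 8.6% of its exonic bases are shared with other genes. The other paralogs of that complex did not pass the fold threshold. RAD51C, the member shared with the CX3 complex and the most abundant of the 37 genes in both groups, was at 51.6, 53.4 and 54.8 FPKM with DMSO and 54.8, 58.4 and 56.7 FPKM with BCT. The groups touch without overlapping, and the log2 fold change of 0.09 did not pass the FDR (adjusted p = 0.129), whereas after rescaling to equal sums it was called higher at 0.86 (adjusted p = 3.33e-07). RAD51B (log2 fold change -0.44, adjusted p = 0.000952) and XRCC3 (-0.78, adjusted p = 6.92e-05) were below DMSO in every BCT sample but short of the fold threshold, and RAD51B was at 0.31 after rescaling to equal sums. XRCC3 is counted with a limit, since 76.7% of its exonic bases also belong to KLC1 on the opposite strand.

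RAD52, which anneals single strands and can stand in for BRCA2 in loading the recombinase, moved the other way. It is on chromosome 12 from 1020902 to 1099219 and was at 5.47, 5.73 and 6.27 FPKM with DMSO against 11.2, 14.3 and 13.4 FPKM with BCT. Every BCT sample was well above every DMSO sample, a log2 fold change of 1.14 ± 0.0973 (SE, adjusted p = 1.02e-05). RAD52 ranked 25 of the 37 genes with DMSO and 8 with BCT.

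Among the genes that sense breaks and trim their ends, the nuclease and helicase of long-range resection fell, while none of the MRN genes passed the fold threshold. EXO1, a nuclease of resection that also serves mismatch repair, was at 16.1, 16.4 and 15.4 FPKM with DMSO and 7.49, 7.401 and 6.75 FPKM with BCT, a log2 fold change of -1.14 ± 0.0617 (SE, adjusted p = 1.26e-06). BLM, the Bloom syndrome helicase, was at 9.05, 8.55 and 8.298 FPKM with DMSO and 3.01, 2.56 and 2.51 FPKM with BCT, 31.2% of its DMSO level and a log2 fold change of -1.65 ± 0.0862 (SE, adjusted p = 1.12e-06). RBBP8 (CtIP), which starts resection, was at 38.8, 36.9 and 35.5 FPKM and 23.3, 23.1 and 22.5 FPKM, a clear separation with a log2 fold change of -0.69 (adjusted p = 5.1e-06) that is short of the fold threshold and became 0.08 after rescaling to equal sums. The 3 MRN genes had values on either side of 0. RAD50, the long coiled-coil ATPase, was at 18.8, 21.02 and 18.1 FPKM with DMSO and 25.8, 28.7 and 28.7 FPKM with BCT, higher in every BCT sample with a log2 fold change of 0.52 (adjusted p = 0.000188) below the fold threshold. It was called higher at 1.29 after rescaling to equal sums and at 0.91 after rescaling without MIR6087, and 76.9% of its exonic bases are also annotated to another protein-coding gene on the same strand. NBN, the subunit that recruits ATM, was at 16.9, 17.7 and 16.1 FPKM with DMSO and 16.97, 16.6 and 17.5 FPKM with BCT, with overlapping groups (adjusted p = 0.838). MRE11A, the nuclease, was at 2.82, 3.08 and 2.85 FPKM and 2.19, 2.14 and 2.16 FPKM, a log2 fold change of -0.42 (adjusted p = 0.00204) that became 0.32 after rescaling to equal sums. The median of all genes was then 0.72.

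The Fanconi anemia genes had the lowest median of the 6 roles, -1.14, with 7 of 10 genes lower and 0 higher. Of all genes tested, 17.8% fell and 13.9% rose. Each gene was counted in a single role, so a Fanconi gene such as BRIP1 stands with the recombination core. After rescaling to equal sums the median of the Fanconi role was -0.40, where that of all genes was 0.72, with FANCD2 called lower and FANCF higher. By FDR alone, in the values as deposited, 9 were lower and FANCF was higher. The FANCD2 and FANCI proteins form the clamp that is ubiquitinated at a cross-link. FANCD2, on chromosome 3 from 10068054 to 10143616, was at 20.05, 22.2 and 21.4 FPKM with DMSO and 7.14, 5.92 and 5.497 FPKM with BCT, 29.2% of its DMSO level, a log2 fold change of -1.77 ± 0.0962 (SE, adjusted p = 1.27e-06). FANCI was at 44.3, 45.4 and 43.1 FPKM with DMSO and 18.1, 14.1 and 13.4 FPKM with BCT, a log2 fold change of -1.55 ± 0.105 (SE, adjusted p = 3.05e-06). The core complex, which carries the ubiquitin ligase, had 5 of 8 genes lower. FANCA, its scaffold, was at 15.1, 15.4 and 15.5 FPKM with DMSO and 7.21, 5.28 and 4.74 FPKM with BCT, a log2 fold change of -1.42 ± 0.135 (SE, adjusted p = 1.76e-05). FANCG, which binds FANCA, was at 32.6, 31.02 and 32.8 FPKM and 13.6, 12.7 and 11.96 FPKM, a log2 fold change of -1.33 ± 0.0607 (SE, adjusted p = 7.5e-07). FANCC fell from 13.98 ± 0.5397 to 6.04 ± 0.562 FPKM and FANCB from 2.62 ± 0.313 to 1.18 ± 0.127 FPKM (SD, n = 3 each). FANCL, the ligase subunit itself, was at 28.98, 26.9 and 26.02 FPKM with DMSO and 16.3, 14.2 and 14.3 FPKM with BCT. Its groups are well apart, but its log2 fold change of -0.87 is the nearest to the threshold among the genes that fell, and the call was lost without DMSO replicate 1 (-0.82), BCT replicate 2 (-0.83) or BCT replicate 3 (-0.83), with a pseudocount of 1 (-0.83), with median-of-ratios scaling (-0.83) and after rescaling to equal sums (-0.10) or without MIR6087 (-0.48). FANCE, the bridge to FANCD2, was just short of the threshold at -0.79 (adjusted p = 3.63e-05), and FANCM, the translocase that anchors the complex on DNA, was at -0.39 (adjusted p = 0.00228) and at 0.36 after rescaling to equal sums. FANCF was the exception, at 18.1, 16.4 and 17.4 FPKM with DMSO and 22.1, 21.4 and 23.2 FPKM with BCT, higher in every BCT sample (log2 fold change 0.36, adjusted p = 0.000445). FANCF has a single exon, and 9.57% of its exonic bases are shared with GAS2, which had a log2 fold change of 0.70.

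Of the 3 damage kinases, CHEK2 fell, and the large apical kinases ATM and ATR did not pass the fold threshold. CHEK2, the effector kinase downstream of ATM, lies on chromosome 22 from 29083731 to 29138410 and was at 24.1, 23.4 and 24.6 FPKM with DMSO and 9.94, 8.42 and 7.92 FPKM with BCT. The groups were far apart, and the log2 fold change was -1.45 ± 0.084 (SE, adjusted p = 1.55e-06). CHEK2 has pseudogene copies elsewhere in the genome, and how the authors' counting split shared reads is not given in the sources used here. ATR, the kinase of stalled forks, was at 3.95, 4.63 and 4.17 FPKM with DMSO and 4.87, 5.47 and 5.24 FPKM with BCT, higher in each BCT sample but by only 0.28 (adjusted p = 0.0118). ATM was at 2.97, 3.55 and 3.19 FPKM with DMSO and 3.59, 3.69 and 4.28 FPKM with BCT, so that the lowest BCT sample lies just above the highest DMSO sample, and its difference of 0.24 did not pass the FDR (adjusted p = 0.0536). After correction for GC content and transcript length ATM was at -0.14, with the sign turned. After rescaling to equal sums both ATM (0.99) and ATR (1.04) passed the threshold for a higher level.

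Of the 5 mismatch repair genes, MSH6 fell (20%), MSH3 rose (20%) and the others were not called. These shares are near those of all genes tested, of which 17.8% fell and 13.9% rose. The median log2 fold change of the mismatch repair genes, -0.06, was also near that of all genes. It became 0.70 after rescaling to equal sums, when that of all genes was 0.72. MSH6, which recognizes single mismatches, is on chromosome 2 from 47922669 to 48037202 and was at 23.2, 23.7 and 21.4 FPKM with DMSO and 10.2, 8.77 and 9.39 FPKM with BCT. It stood at 41.6% of the DMSO level, a log2 fold change of -1.26 ± 0.0715 (SE, adjusted p = 1.47e-06). MSH3, which recognizes larger loops, was the least abundant of the 37 genes with DMSO, at 1.41, 1.31 and 1.22 FPKM, and rose to 3.25, 4.43 and 4.21 FPKM with BCT. The lowest BCT sample was above every DMSO sample by a wide margin, and the log2 fold change was 1.51 ± 0.134 (SE, adjusted p = 1.23e-05). The MutL genes PMS2, PMS1 and MLH3 did not pass the fold threshold. PMS2 was at 11.9, 12.8 and 11.5 FPKM with DMSO and 11.2, 10.1 and 10.4 FPKM with BCT (log2 fold change -0.19, adjusted p = 0.0247), and it has near-identical pseudogenes with which reads can be shared. PMS1 was at 9.89, 9.85 and 9.97 FPKM and 8.81, 9.39 and 10.3 FPKM, with overlapping groups (adjusted p = 0.41). Both had a positive value after rescaling to equal sums, 0.57 for PMS2 and 0.70 for PMS1. MLH3, whose product also acts in meiotic crossing over, was at 3.08, 3.04 and 2.73 FPKM with DMSO and 3.95, 3.84 and 3.87 FPKM with BCT (log2 fold change 0.39, adjusted p = 0.0019), and it was called higher at 1.13 after rescaling to equal sums.

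Because FPKM is scaled by transcript length, levels can be set against each other within a sample, and such a ratio does not depend on the scaling of that sample. Of the 18 pairs compared, 14 had no overlap between the groups. The same share over all pairs of genes was not computed. Of all single genes tested, 44.3% had every BCT sample below every DMSO sample and 41.0% had every BCT sample above, so separation by itself is common here. The ratio of MSH6 to MSH3 moved most among the 18 pairs. It was 16.4, 18.1 and 17.5 in the DMSO samples and 3.15, 1.98 and 2.23 in the BCT samples, so the balance between the mismatch and the loop reader shifted toward MSH3 in every BCT sample. The ratio of BRCA1 to BARD1 was 4.598, 5.102 and 5.17 with DMSO and 2.06, 1.82 and 1.83 with BCT, without overlap. For RAD50 to MRE11A it was 6.66, 6.84 and 6.34 with DMSO and 11.8, 13.4 and 13.3 with BCT. FANCF to FANCE, of one core complex, was 3.36 ± 0.148 with DMSO and 7.57 ± 0.631 with BCT (SD, n = 3 each). RAD52 to BRCA2, which both load the recombinase, was 2.68 ± 0.266 with DMSO and 9.51 ± 0.993 with BCT. RAD51C to XRCC3 (2.998 ± 0.0872 with DMSO and 5.52 ± 0.809 with BCT) and PMS2 to MLH3 (4.09 ± 0.199 with DMSO and 2.72 ± 0.104 with BCT) were among the other pairs whose groups were apart. In 4 pairs the groups overlapped. RAD51D to XRCC2 was 1.06, 0.9399 and 0.956 with DMSO and 1.27, 0.993 and 1.02 with BCT, and FANCG to FANCA, ATR to ATM and PMS2 to PMS1 also overlapped between the groups. FANCI to FANCD2, without overlap, was 2.09 ± 0.105 with DMSO and 2.45 ± 0.0808 with BCT, while the genes fell to 34.3% and 29.2% of their DMSO level. The pairs were chosen with the values of these genes known, and the smallest p that an exact permutation test allows with 3 samples in each group is 0.1, so no test was made of the ratios.

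**Figure D3:**
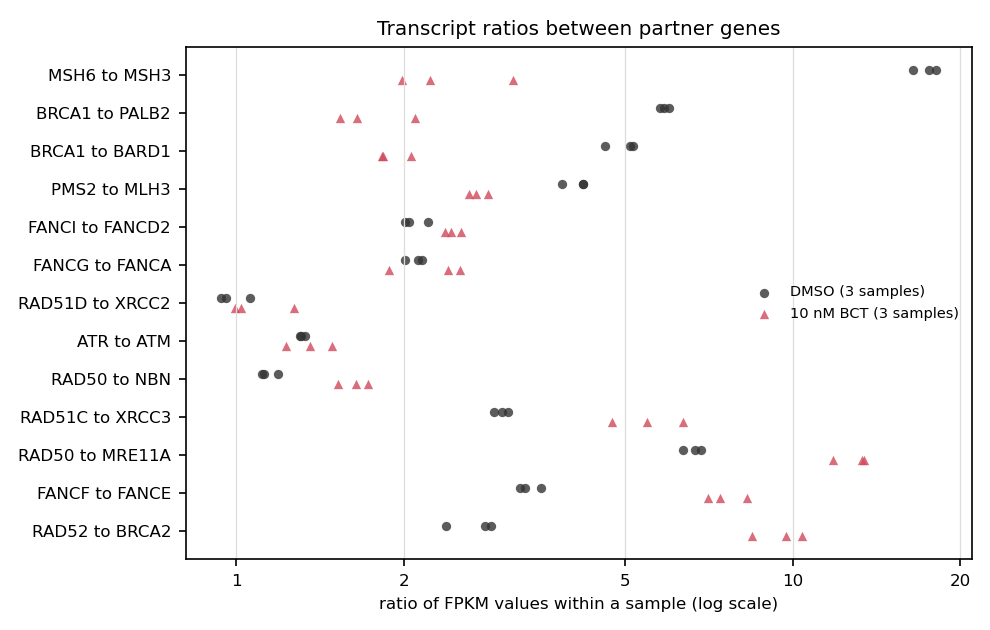
Ratio of the FPKM values of 2 genes within each sample, on a log axis, for pairs that share a complex or a step, with DMSO samples as black circles and BCT samples as red triangles. MSH6 to MSH3 moves from 16.4 to 18.1 with DMSO down to 1.98 to 3.15 with BCT, RAD52 to BRCA2 moves up, and RAD51D to XRCC2 and ATR to ATM overlap.

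Several of these genes share their start region or part of their exons with another gene, and the library kit does not keep the strand of the RNA. In the GENCODE annotation on GRCh37, 14 of the 37 genes have over 5% of their exonic bases in common with another gene, and 13 carry in the files a position that is also given to another symbol. CHEK2 and HSCB, a cochaperone gene of iron-sulfur cluster assembly, start 219 bases apart, and HSCB rose from 15.9 ± 0.871 to 29.2 ± 1.18 FPKM (SD, n = 3 each, log2 fold change 0.87) while CHEK2 fell. RAD54L shares 19.9% of its exonic bases with LRRC41, which rose from 26.8 ± 0.347 to 58.6 ± 1.65 FPKM (log2 fold change 1.13). FANCA shares 19.6% with ZNF276 (log2 fold change -0.22), and MSH6 shares 22.7% with FBXO11 (log2 fold change 0.52), so in these pairs the neighbor did not fall with the repair gene past the threshold. BRCA1 and NBR2, 187 bases apart, were both lower by FDR, at -1.72 and -0.70. Over the 10 pairs compared whose starts lie within 1000 bases, 4 had the same sign. How reads of the shared bases were assigned, and their part in these values, was not tested.

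Other repair genes were counted with the same rule, by which 17.8% of all genes tested fell and 13.9% rose. Of 53 further tested genes of recombination, the Fanconi pathway and checkpoint signaling, 16 fell and 4 rose, with a median log2 fold change of -0.38. UBE2T, the ubiquitin-conjugating enzyme of FANCL, fell from 225 ± 10.1 to 63.6 ± 10.2 FPKM, RMI2, a partner of BLM, from 41.3 ± 0.887 to 10.3 ± 2.22 FPKM, and CLSPN (claspin), the adaptor of ATR signaling, from 8.096 ± 0.7999 to 2.07 ± 0.355 FPKM, whereas ERCC4 (XPF), the nuclease that unhooks cross-links, rose from 2.82 ± 0.274 to 9.903 ± 1.18 FPKM (SD, n = 3 each). Of 14 genes of nonhomologous end joining, limma called 0 lower and 2 higher (14.3%, near the share of all genes), with a median of 0.20. LIG4, its ligase, was at 3.16, 3.05 and 2.89 FPKM with DMSO against 11.7, 14.2 and 15.5 FPKM with BCT, a log2 fold change of 2.15 ± 0.103 (SE, adjusted p = 8.66e-07), and POLM, a gap-filling polymerase, had a log2 fold change of 0.90. By the FDR alone 4 end joining genes were lower and 8 higher, where 82.1% of all genes tested passed it. Of 21 genes of nucleotide excision repair, CETN2 fell (-1.31), the damage sensors XPC (1.03) and DDB2 (1.77) rose, and the median was 0.21. That is 4.76% lower and 9.52% higher, both below the shares of all genes. Of 20 genes of base excision repair, 8 fell and 1 rose, with a median of -0.68; UNG, the uracil glycosylase, FEN1, the flap endonuclease, LIG1, the replicative ligase, and NEIL2, a glycosylase of oxidized bases, were at -2.47, -2.03, -1.84 and -1.66. These are counts and medians with no test between the lists.

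**Figure D4:**
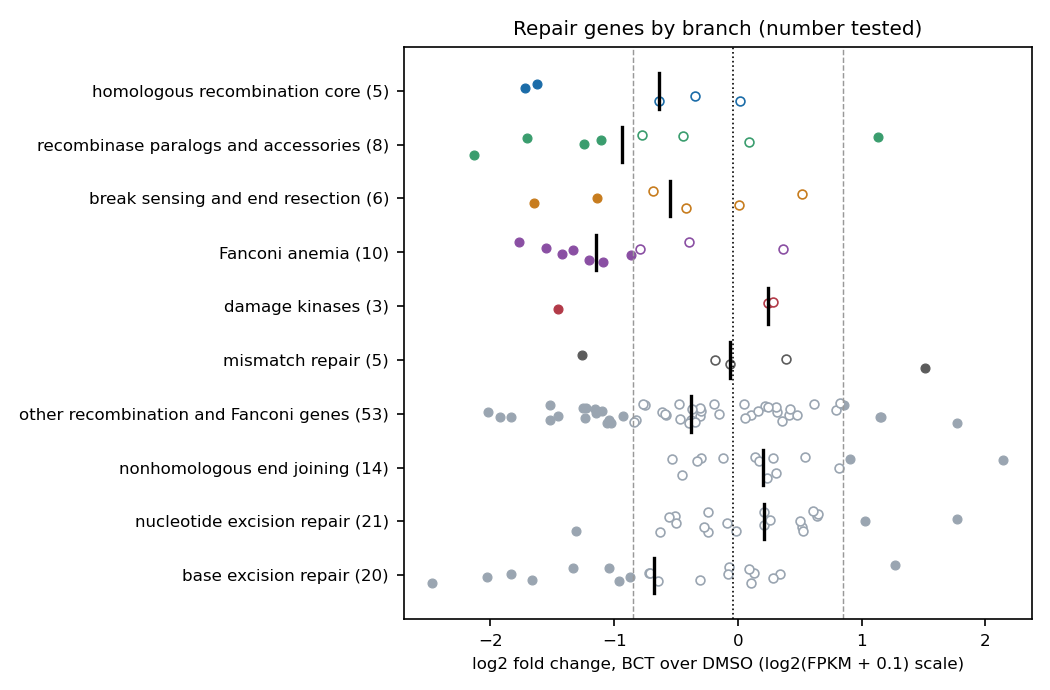
Log2 fold change of each tested gene on the log2(FPKM + 0.1) scale by role (colored) and in 4 other repair lists (gray), with filled circles for called genes, black bars at each median, dashed lines at the fold threshold and a dotted line at the median of all genes. The Fanconi genes have a median of -1.14, the end joining genes one of 0.20.

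The lists used to score the S phase in single cells (Seurat) hold 4 of the 37 genes, BRIP1, RAD51AP1, EXO1 and BLM, and all 4 fell, with a median log2 fold change of -1.64. The other 38 tested genes of that list had a median of -1.64, with 32 lower (84.2%) and 0 higher, against 17.8% and 13.9% of all genes tested. The 33 genes of the present set that are not on it had a median of -0.64, with 13 lower and 2 higher. The share of cells in S phase was not measured in these samples, and its part in the fall was not tested.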

How the data were processed

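Per the labels and the study's methods, RNA of 22RV1 cells, taken 24 h after addition of DMSO or of BCT at 10 nM, was made into TruSeq v2 libraries and sequenced. The authors deposited gene-level FPKM values, 1 file per sample, made with Trimmomatic (0.38) for trimming, HISAT2 for alignment to hg19 (GRCh37) and StringTie for quantification. The labels also list CASAVA and HTSeq. The gene annotation and the gene-level test are not given in the sources used here.

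The deposited FPKM values were not rescaled. The filter, a 6-sample mean of 1 FPKM or more, left 12729 genes, which were transformed to log2(FPKM + 0.1), which understates changes of low values, and fitted with limma 3.58.1 under R 4.3.3 (trended empirical Bayes moderation, groups only, Benjamini-Hochberg adjustment over all genes tested). The fit was tested on simulated data. The members, roles, comparison lists, pairs and motifs were chosen with earlier results of these data known. Every member is named; from each comparison list at most 4 called genes with the largest absolute change are named, and neighbors were chosen by position, of which 1, and 1 marker gene, are not reported here. Positions are those of GENCODE (release lifted to GRCh37), which matched 23773 of 26255 symbols. Promoters come from RefSeq. The S-phase list is that of Seurat 5.3.0. Alternatives covered pseudocount, filter, scaling, FDR, moderation, test, replicate block, each sample left out, and a loess correction (span 0.5) for GC content and transcript length.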

Additional observations from a re-analysis of the deposited data

How the results depend on the processing

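Of 690 log2 fold changes of single genes under 19 alternatives, 637 kept both sign and call, 25 lost the call, 9 gained it and 19 changed sign. The alternatives of filter, FDR, moderation, test and replicate block leave the log2 fold change of a gene as it was. Under these, no sign could change, so the tally overstates how stable the signs were. A replicate block left 17 genes lower and 2 higher, with no call changed. The deviations of same-numbered samples correlated weakly, at 0.12, 0.033 and 0.034, and those of differently numbered samples at -0.115 to 0.074. The labels do not say whether the replicate numbers pair the samples, and these values do not settle it. Leaving out each sample in turn gave 16 to 18 genes lower and 2 higher, with medians of -0.83 to -0.67 for all 37 genes, -0.71 to -0.57 for the recombination core and -0.57 to -0.53 for resection; PALB2 (-0.0203 to 0.0725) and NBN (-0.0202 to 0.0458) changed sign.

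Rescaling to equal sums gave 6 genes lower and 8 higher, with medians of -0.0137 (all 37 genes), 0.0866 (core), -0.18 (recombinase paralogs), 0.20 (resection), -0.40 (Fanconi), 0.99 (kinases) and 0.70 (mismatch repair). BARD1 (0.41), BRCA2 (0.0866), RAD51B (0.31), MRE11A (0.32), RBBP8 (0.0785), FANCM (0.36), PMS1 (0.70) and PMS2 (0.57) changed sign. Rescaling without MIR6087 gave 12 lower and 3 higher, with medians in the same order of -0.39, -0.27, -0.56, -0.17, -0.77, 0.62 and 0.32, and turned the sign of BARD1 (0.03), PMS1 (0.32) and PMS2 (0.20). Over all genes, 10.6% and 26.4% of calls were then lower, against 56.2%, and the median was 0.72 and 0.34, against -0.04. Median-of-ratios scaling gave 16 lower, without FANCL (-0.83), and moved the medians of core and resection to -0.60 and -0.51, and quantile normalization to -0.59 and -0.51.

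A pseudocount of 1 gave 15 lower, without FANCB (-0.73) and FANCL (-0.83), and moved the medians to -0.67 (all 37 genes), -0.43 (core), -0.49 (resection) and -0.96 (Fanconi), and 0.01 moved the core to -0.67. A minimum of 5 FPKM kept 24 genes, with 1 higher and medians of -1.17 (all), -1.72 (core), -0.69 (resection), -1.33 (Fanconi), -1.45 (kinases, CHEK2 alone) and -0.19 (mismatch repair), since fewer genes were tested. Correction for GC content and length moved the core to -1.03, resection to -0.69, the kinases to -0.14 and mismatch repair to -0.16, and turned the sign of PALB2 (-0.0337), NBN (-0.15) and ATM (-0.14). A test against the fold threshold itself called 14 lower, without RAD51D, FANCB and FANCL, and over all genes 1392 lower and 1033 higher, against 2263 and 1764. Apart from the minimum, the cause of these changes was not tested. FPKM carries no fragment counts, so the precision of low genes such as BRCA2, FANCB and MSH3 rests on 3 samples a group.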

Other observations

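The annotation column of the files assigns 184 genes to DNA repair, of which 178 were tested and 25 are among the 37 genes described above. Of the 153 tested genes outside the 37, 37 were called lower (24.2%) and 24 higher (15.7%), against 17.8% and 13.9% of all genes tested. Their median log2 fold change was -0.02, against -0.04 for all genes tested. For the 25 shared genes the median was -0.87, and 13 were called lower and 1 higher. This count was added after the data were examined and has no test. Of the G2/M-phase genes of Seurat, none of which is among the 37, 14 of 54 were called lower (25.9%) and 2 higher (3.70%), with a median of -0.59.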
